A study of Mus musculus with 67 samples.

Results

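Activated conventional CD4 T cells (Tconv) from the rest brain of Balb/c mice were compared between a high-fat high-sugar (HFHS) diet and standard diet (SD). The 6 libraries, 3 per diet, were chosen by their labels for tissue, strain, cell type and diet, out of 67 libraries in the whole series. The series profiles T cells sorted from the hypothalamus and from the rest of the brain of mice on each diet. All 6 libraries came from female Foxp3GFP Balb/c mice, in which cells with the regulatory T cell (Treg) factor Foxp3 carry a green fluorescent protein. The label gives the tissue as brain, here the tissue left without olfactory bulbs, cerebellum and hypothalamus, and gives the diet as HFD for the HFHS groups. Leukocytes were enriched over Percoll, and live cells were sorted as CD4+CD25-Foxp3GFP- with high CD44, among other markers. Cells of 5 mice were pooled for each library per the study's methods, so the spread given here is between pools and not between mice. Mice were 6 weeks old when the diets began, per the study's methods, and the time on the diet of these pools is not given in the sources used here. The libraries are named by their pools, 15_21, 16_20 and 47_25 on HFHS and 32_36, 37_41 and 42_46 on SD, and values for each diet are given in that order throughout. The names 15_21 and 16_20 overlap as number ranges, and whether these pools share mice is not stated.

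Antigen-experienced CD4 T cells patrol the healthy brain, its vessels and its borders, and read peptides on MHC class II through the T-cell receptor and its CD3 chains. When they are activated they build ribosomes, respire and take up glucose, express cytokines such as interferon gamma and interleukin 2, and enter the cell cycle. Brain tissue is made of neurons, astrocytes, oligodendrocytes and microglia, so transcripts that mark these cells show what a sorted library holds besides T cells.

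The libraries held 18549360, 19191428 and 18275842 counts on genes on HFHS and 18340885, 23554847 and 11340062 counts on SD, so SD 42_46 had the fewest. Levels are given as CPM (counts scaled to a common library total) after TMM scaling, which corrects library totals for composition, unless another scale is named. The detection floor of 3 counts lay at 0.127 to 0.265 CPM. Single-library shares carry exact Clopper-Pearson 95% intervals, which like the floor cover counting error only. Rank correlations between libraries over the genes tested were 0.870 to 0.929 within a diet and 0.830 to 0.922 between the diets. In a multidimensional scaling of the 6 libraries, SD 42_46 stood apart on the first axis at 3.36, against −1.85 to 0.47 for the others. HFHS 47_25 stood apart on the second axis at −3.07, against −1.03 to 1.53 for the others. The axes held 25.4 and 22.3% of the variance, and values without one or the other of these libraries are given for some results below.

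All libraries carried the transcripts of T cells. The 12 T-cell markers in the files were detected in each of them, and their summed level was 9396, 9309 and 8757 CPM of the library total on HFHS and 10149, 10097 and 9801 CPM on SD. With TMM the sums were 9842, 10237 and 9568 CPM on HFHS and 9744, 9702 and 8577 CPM on SD, with overlap. Among the genes of the sort gate, Cd44, the adhesion receptor of antigen-experienced cells, lay at 23.8 to 39.1 TPM (a scale that also divides by transcript length). Foxp3 lay at 0.920 to 2.42 TPM and Il2ra, which encodes CD25, at 2.61 to 5.71 TPM, both low beside Cd3g at 3416 to 3763 TPM. Cd4 itself lay at 40.98, 35.9 and 24.6 TPM on HFHS and 85.3, 55.8 and 77.999 TPM on SD, with no overlap of the diets. Against the CD4 gate, transcripts of the CD8 chains were present in all 6 libraries, Cd8a at 34.1, 39.7 and 34.7 TPM on HFHS and 42.8, 60.2 and 71.5 TPM on SD, and Cd8b1 at 117, 130.5 and 113 TPM and 181, 198 and 234 TPM. Cd8b1 was therefore above Cd4 on this scale in each library. In bulk samples like these, fewer cells of a type and less RNA per cell cannot be told apart.

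The HFHS libraries held more transcript of ribosomal proteins, respiratory chain subunits and other short messages, and lower levels of most mitotic and glycolytic genes, and no single gene passed the test. Of 10992 genes tested, edgeR called 0 (0%) at an adjusted p under 0.05, and the smallest adjusted p was 0.0572. At an unadjusted p under 0.05, 767 genes were higher on HFHS (6.98%) and 605 lower (5.5%), and such genes are termed nominally higher or lower below. The diet groups did not overlap at 1117 genes that were higher (10.2%) and at 1051 that were lower (9.56%). Other fits of the same counts called more genes. DESeq2 called 590 genes, 382 of them higher, limma-voom 125, and an edgeR fit with the libraries of the other strain 190. The median log2 fold change over all genes tested was −0.06, which is the value the lists below are set beside, and with library totals in place of TMM it shifted by −0.22. On that scaling the balance turned, with 415 genes nominally higher and 1095 nominally lower. Below, genes are called higher or lower by their values, without a call.

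The shift between the diets went with transcript length and with GC content. The share of counts on the shortest of 5 equal groups of genes, with transcripts up to 1525 bases, was 51.5, 55.2 and 54.6% on HFHS and 47.9, 45.8 and 43.1% on SD, with intervals of at most 0.0288 percentage points on each side. Each HFHS library lay above each SD library. Tmsb4x, a short message for the actin-binding peptide thymosin beta 4 and the most abundant gene in all 6 libraries, took 5.13, 5.78 and 6.01% of the counts on HFHS and 4.01, 4.05 and 3.66% on SD. The median log2 fold change from the shortest to the longest group was 0.24, −0.24, −0.28, −0.08 and 0.02. In the same order 65.6, 36.6, 35.5, 45.6 and 51.3% of the genes were higher. In the shortest group 457 genes were nominally higher and 54 nominally lower. Without the ribosomal protein and respiratory chain genes, the other 2062 genes of the group had a median of 0.20, with 347 nominally higher and 54 nominally lower. By GC content the medians were 0.19, 0.04, −0.04, −0.22 and −0.35 from the most AT-rich to the most GC-rich of 5 groups. An offset that levels length and GC content in each library, added after seeing the data, gave 276 genes nominally higher and 560 nominally lower, with 0 called by edgeR. Of the 767 nominally higher genes 210 were so with the offset, and of the 605 nominally lower genes 401. Whether these differences by length and GC content lie in the cells or in the libraries was not tested, and values with the offset are given beside those without it.

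**Figure D1:**
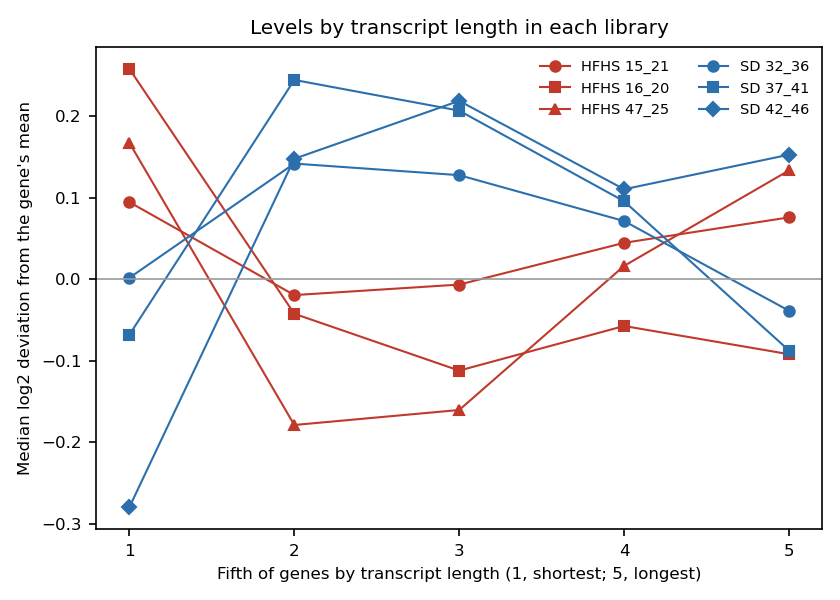
Median log2 deviation from each gene's mean over the 6 libraries (y axis) in 5 groups of genes by transcript length (x axis), with HFHS libraries in red and SD libraries in blue. In the shortest group the 3 HFHS libraries lie above the 3 SD libraries, and in the next 2 groups below them.

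Messages for the ribosome itself were higher on HFHS nearly throughout. The 82 cytosolic ribosomal protein genes together took 9.75, 10.6 and 9.56% of the counts on HFHS and 8.68, 7.94 and 7.40% on SD, with intervals of at most 0.0152 percentage points on each side. Of these genes 79 of 82 were higher, 71 nominally higher and 0 nominally lower, and their median log2 fold change was 0.57 against −0.06 for all genes. Rps27, a small-subunit protein, lay at 4348, 4458 and 4595 CPM on HFHS and 2949.9, 2821 and 2242 CPM on SD (log2 fold change 0.74, standard error 0.13, adjusted p = 0.0742). Rps15a, which sits in the same subunit, lay at 1170.1, 1223 and 1219.6 CPM on HFHS and 682, 703 and 588 CPM on SD (log2 fold change 0.87, standard error 0.14, adjusted p = 0.0742). Neither gene had overlapping diets. Rpl32 of the large subunit lay at 3221, 3483 and 3205 CPM on HFHS and 2469.6, 2317 and 1808 CPM on SD, again without overlap (log2 fold change 0.59). The 3 members that were lower included Rpl3 (transcript of 1361 bases, log2 fold change −0.22) and Rplp0 (1360 bases, −0.11). All 7 members with transcripts over 1525 bases were higher, with a median of 0.43, and Rps15a is one of them at an annotated 5134 bases. The offset uses this annotated length, and whether the reads of Rps15a came from so long a transcript was not tested. With the length and GC offset the list's median was 0.01, against −0.10 for all genes, Rps27 was at −0.17 and Rps15a at 0.70. Without SD 42_46 the median was 0.47.

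Nuclear-encoded subunits of the respiratory chain, which makes ATP in mitochondria, were mostly higher as well. Of 77 genes 66 were higher, 48 nominally higher and 5 nominally lower, and the median log2 fold change was 0.56. Cox7b, a subunit of cytochrome c oxidase, lay at 577, 746 and 769 CPM on HFHS and 378, 390.2 and 272 CPM on SD (log2 fold change 1.01, standard error 0.19, adjusted p = 0.0742). Ndufa4, a small subunit of the same complex, lay at 852, 912 and 889 CPM on HFHS and 591, 537 and 409.7 CPM on SD (log2 fold change 0.79). Split by length after seeing the data, 60 of the 64 members up to 1525 bases were higher (median 0.58), and 6 of the 13 longer ones (median −0.43). Among the longer ones Atp5b, the catalytic beta subunit of ATP synthase with a transcript of 1879 bases, lay at 333, 270.2 and 316 CPM on HFHS and 472, 482 and 498 CPM on SD (log2 fold change −0.66). The median length of the list was 681 bases, and with the offset its median log2 fold change was −0.06. There Cox7b was at 0.33 and Ndufa4 at −0.18, while Atp5b was at −0.44. Genes of the proteasome, which cuts proteins into peptides, had 21 of 31 genes higher, 9 nominally higher and 1 nominally lower, with a median of 0.28, and −0.00 with the offset. Their median less that of all genes was 0.34, and 0.17 without HFHS 16_20. Psma3 of its core was higher at 836, 986 and 1084 CPM on HFHS and 632, 733 and 506 CPM on SD. Psmd2 of its cap was lower at 58.9, 61.5 and 27.1 CPM on HFHS and 88.7, 97.7 and 89.2 CPM on SD, and neither gene had overlap.

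Most genes of mitosis were lower on HFHS, and whether their summed level overlapped between the diets depended on the scale. Of 51 genes of the G2 and M phases 9 were higher, 1 nominally higher and 16 nominally lower, with a median log2 fold change of −0.92. Their median level, as log2 of CPM, was 3.76, 3.02 and 3.30 on HFHS and 4.51, 4.76 and 3.82 on SD, without overlap. As a share they took 0.390, 0.342 and 0.394% of the counts on HFHS and 0.453, 0.508 and 0.398% on SD, lower in each HFHS library than in each SD library, though the 95% intervals of HFHS 47_25 and SD 42_46 overlapped. With TMM their summed level was 4086, 3759 and 4304 CPM on HFHS and 4352, 4870.1 and 3479 CPM on SD, with overlap, and SD 42_46 was the lowest of all 6 libraries. Nusap1, which bundles spindle microtubules, lay at 13.3, 10.1 and 18.7 CPM on HFHS and 98.4, 95.2 and 72.9 CPM on SD (log2 fold change −2.66, standard error 0.36, adjusted p = 0.0572), the diets lying far apart in all libraries. Aurkb, the kinase that corrects chromosome attachment, had 1, 9 and 0 counts on HFHS and 442, 314 and 239 counts on SD, so that it was near the floor on HFHS. Mki67 and Top2a, classical markers of cycling cells added after their values were seen, did not separate the diets in this way. Mki67 lay at 13.04, 10.3 and 23.3 CPM on HFHS and 52.3, 52.2 and 12.7 CPM on SD, and Top2a at 8.92, 13.98 and 14.2 CPM and 34.97, 55.2 and 10.7 CPM. Thus SD 42_46 was as low as the HFHS libraries at both genes. The most abundant member, the chromatin protein gene Hmgb2, overlapped between the diets at 1635, 1817 and 2195 CPM on HFHS and 1592, 1891 and 1338 CPM on SD, and Lbr, a receptor of the nuclear envelope, was higher on HFHS (log2 fold change 0.49). Genes of S phase, when DNA is copied, had 17 of 40 genes higher, 0 nominally higher and 3 nominally lower, with a median of −0.15. Less the median of all genes this was −0.10, and it turned to 0.11 without SD 37_41 and 0.10 without SD 32_36. Rrm2, which makes DNA precursors, lay at 15.2, 24.01 and 23.9 CPM on HFHS and 111, 89.3 and 9.65 CPM on SD. Pcna, the sliding clamp of replication, lay at 343, 276 and 255 CPM on HFHS and 367, 271 and 158 CPM on SD, where the diets overlapped.

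The G2 and M phase list had a median of −1.18 with the offset and −1.05 without SD 42_46. Its size varied with the libraries used. Taken less the median of all genes, it was −0.87, and it was −0.42 without SD 37_41, −0.56 without SD 32_36 and −1.42 without HFHS 15_21. Without HFHS 47_25 it was −1.27. On the same measure the ribosomal protein list was at 0.64 without HFHS 47_25 (0.63 with it), the respiratory chain at 0.58 (0.61) and glycolysis at −0.49 (−0.62).

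Glycolytic genes, which turn glucose into pyruvate and lactate, were lower on HFHS. They took 0.248, 0.228 and 0.185% of the counts on HFHS and 0.342, 0.390 and 0.394% on SD. Of the genes tested 4 of 19 were higher, 0 nominally higher and 6 nominally lower, with a median log2 fold change of −0.68. Gapdh lay at 732, 597 and 525 CPM on HFHS and 909, 994 and 931 CPM on SD (log2 fold change −0.61, −0.49 with the offset). Eno1, the enolase, lay at 292, 263 and 238 CPM on HFHS and 368, 534 and 485 CPM on SD (−0.81, −0.32 with the offset), neither with overlap. Ldha, which makes lactate, lay at 448, 612 and 398 CPM on HFHS and 582, 801 and 576 CPM on SD, where the diets overlapped. With the offset the median of the list was −0.34. Genes of ribosome biogenesis, the assembly factors as opposed to the ribosomal proteins, had 15 of 45 genes higher, 3 nominally higher and 4 nominally lower, with a median of −0.38. Here the lower members included Rrp9, which processes ribosomal RNA, at 3.73, 1.49 and 2.81 CPM on HFHS and 16.8, 19.7 and 10.3 CPM on SD. The higher members included Nop10, a short message of the pseudouridylation complex, at 545, 640.5 and 603 CPM on HFHS and 391, 348 and 288 CPM on SD. The median of this list was −0.14 without SD 42_46.

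Lipid programs, the ones closest to a diet rich in fat, took a smaller share of the counts in each HFHS library than in each SD library, with few genes nominally lower. Genes of fatty acid uptake and oxidation took 0.172, 0.166 and 0.137% of the counts on HFHS and 0.219, 0.227 and 0.278% on SD. They had 9 of 28 genes higher, 0 nominally higher and 2 nominally lower, with a median of −0.11. The median was 0.03 without SD 42_46 and −0.24 with the offset. Without Ucp2, a gene left out after seeing its values, the share was 0.129, 0.130 and 0.107% on HFHS and 0.142, 0.147 and 0.166% on SD, still without overlap. With TMM the sum of the list was 1804, 1820.2 and 1501 CPM on HFHS and 2105, 2176 and 2432 CPM on SD, without overlap, and without Ucp2 it was 1349, 1429 and 1172 CPM on HFHS and 1363, 1413 and 1448 CPM on SD, with overlap. Genes of cholesterol synthesis took 0.0526, 0.0508 and 0.0487% of the counts on HFHS and 0.0655, 0.0694 and 0.0734% on SD. They had 10 of 25 genes higher, 0 nominally higher and 2 nominally lower, with a median of −0.27. Less the median of all genes this was −0.21, and −0.05 without HFHS 47_25. Ucp2, which carries metabolites across the inner mitochondrial membrane, was lower at 455, 391 and 329 CPM on HFHS and 742, 763 and 984 CPM on SD (log2 fold change −1.08, standard error 0.18, adjusted p = 0.0742, −0.82 with the offset). Hadh, a dehydrogenase of beta-oxidation, was lower at 36.2, 38.9 and 34.6 CPM on HFHS and 75.3, 115 and 39.4 CPM on SD. Acadm, which starts the oxidation of medium-chain fatty acids, was higher at 82.7, 105 and 89.98 CPM on HFHS and 55.02, 54.9 and 82.5 CPM on SD, and the diets did not overlap at either gene. Fdft1, which commits isoprenoids to sterols, lay at 30.5, 33.01 and 20.6 CPM on HFHS and 33.9, 56.1 and 80.03 CPM on SD.

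The T-cell receptor complex was split. Cd3e, a signalling chain of the receptor, lay at 1288, 1305 and 1073 CPM on HFHS and 1889, 2089 and 1855 CPM on SD (log2 fold change −0.67, standard error 0.14, adjusted p = 0.0772). Lck, the kinase that starts its signal, lay at 581, 449 and 466 CPM on HFHS and 776, 972 and 852 CPM on SD (log2 fold change −0.80, standard error 0.16, adjusted p = 0.0760). Both were lower in each HFHS library than in each SD library. Cd3g, another chain of the same complex, was higher at 3615, 4063 and 3959 CPM on HFHS and 2815, 2772 and 2486 CPM on SD (log2 fold change 0.53, standard error 0.12, adjusted p = 0.0981). The 3 genes differ in length, with 1023 bases for Cd3g, 1436 for Cd3e and 2117 for Lck. With the offset the log2 fold changes were 0.07, −0.74 and −0.35. The receptor signalling list as a whole had 10 of 35 genes higher, 4 nominally higher and 4 nominally lower, with a median of −0.20. Il2, the growth factor that activated T cells secrete, lay at 211, 207 and 352 CPM on HFHS and 100.2, 109 and 102 CPM on SD (log2 fold change 1.30, standard error 0.24, adjusted p = 0.0742, 0.44 with the offset). The receptor chain gene Il2rb lay at 107, 64.9 and 61.3 CPM on HFHS and 136, 289 and 264 CPM on SD (log2 fold change −1.57, −1.18 with the offset).

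Genes that the study names for CD4 T cells gave no common direction between the diets. Tbx21, the master regulator of Th1 cells, lay at 14.4, 7.45 and 8.91 CPM on HFHS and 13.2, 23.5 and 52.2 CPM on SD (log2 fold change −1.53, −0.83 without SD 42_46). Its target Cxcr3, a homing receptor for inflamed tissue, lay at 583, 397 and 399 CPM on HFHS and 552, 658 and 690.4 CPM on SD (−0.46), and the diets overlapped at both. The Th1 cytokine gene Ifng lay at 611, 546 and 1105 CPM on HFHS and 369, 738 and 463 CPM on SD (0.53). Ccl5, a chemokine of effector cells with a transcript of 531 bases, was the only 1 of the 14 without overlap, at 2775, 2545 and 3312 CPM on HFHS and 1803, 1655 and 2172 CPM on SD (log2 fold change 0.62, standard error 0.15, adjusted p = 0.105), and was at −0.06 with the offset. Of the receptors for leaving tissue, Ccr7 lay at 68.8, 66.1 and 35.2 CPM on HFHS and 95.02, 82.03 and 56.5 CPM on SD (−0.46). The other, S1pr1, lay at 110.2, 219 and 119 CPM on HFHS and 179, 266 and 183 CPM on SD (−0.49). Cxcr6, which retains T cells in tissue, was abundant and at like levels, 1641, 1413 and 1317 CPM on HFHS and 1567, 1678 and 1750.3 CPM on SD (−0.19). The adhesion receptor gene Cd226 lay at 256, 231 and 417 CPM on HFHS and 198, 302 and 371 CPM on SD (0.06). The chemokine receptor gene Ccr4 (−0.36) and the signalling genes Irak1 (0.22), Pik3cg (0.81), Mtor (0.69), Map3k7 (0.26) and Tlr4 (−0.64) overlapped between the diets as well. For Cd226, Ccr4, Mtor, Map3k7 and Tlr4 the sign turned in some fits with 1 library left out.

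Lists of T-cell states stood near the median of all genes, apart from the one for Th2 and Th17 genes. That list had 9 of 16 genes higher, 3 nominally higher and 1 nominally lower, with a median of 0.58. The list had a median of 0.13 with the offset, and of −0.06 without HFHS 15_21. Its higher members without overlap were Maf, a transcription factor of cytokine-producing helper cells, at 351, 492 and 462 CPM on HFHS and 215, 291 and 229.8 CPM on SD (log2 fold change 0.83, standard error 0.19, adjusted p = 0.101, 0.84 with the offset), and Il1rl1, the receptor for the alarmin interleukin of tissue damage, at 18.2, 17.8 and 16.9 CPM on HFHS and 4.08, 5.02 and 0.695 CPM on SD. Stat3, the factor downstream of many inflammatory cytokines, was lower at 50.3, 26.02 and 36.8 CPM on HFHS and 57.2, 90.2 and 62.2 CPM on SD. Th1 and cytotoxic genes had 15 of 32 genes higher, 3 nominally higher and 4 nominally lower, with a median of −0.14. Their median was −0.21 to 0.12 when 1 library was left out, and −0.32 with the offset. Stat4, which drives Th1 fate, lay at 281, 336 and 243 CPM on HFHS and 427, 418 and 406 CPM on SD. Tissue residency genes had 12 of 24 genes higher, 3 nominally higher and 1 nominally lower, with a median of −0.05 (−0.19 to 0.26 with 1 library left out). Genes of naive cells and egress had 9 of 20 genes higher, 1 nominally higher and 1 nominally lower. Their median was −0.01 with the offset and −0.23 without it. Less the median of all genes the latter was −0.18, and 0.00 without HFHS 47_25. Checkpoint and exhaustion genes had 8 of 15 genes higher, 2 nominally higher and 0 nominally lower, with a median of 0.00. Treg genes had 6 of 13 genes higher, 2 nominally higher and 0 nominally lower, with a median of −0.11. With 1 library left out these 2 medians were 0.02 to 0.25 and −0.17 to 0.09. Cd200, an inhibitory ligand, was higher at 38.3, 12.6 and 19.8 CPM on HFHS and 10.7, 2.41 and 3.09 CPM on SD. So was Ramp1, a subunit of the receptor for the neuropeptide CGRP, at 192, 229 and 135 CPM on HFHS and 113, 91.2 and 108 CPM on SD (log2 fold change 0.83, 1.16 with the offset). Klf2, which drives the egress receptors, was lower (177, 191 and 195 CPM on HFHS and 292, 291 and 215 CPM on SD) and reached 0.11 with the offset.

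Lists of stimulus and stress genes held some genes higher and some lower on HFHS. NF-kB genes had 11 of 26 genes higher, 0 nominally higher and 3 nominally lower, with a median of −0.41 (−0.09 with the offset). Less the median of all genes this was −0.35, and −0.16 without HFHS 47_25. The cytokine gene Tnf lay at 66.2, 43.1 and 32.9 CPM on HFHS and 64.03, 199 and 145 CPM on SD, and the adaptor gene Traf1 at 38.3, 35.6 and 33.003 CPM on HFHS and 68.004, 88.3 and 92.1 CPM on SD. AP-1 and immediate early genes had 13 of 31 genes higher, 5 nominally higher and 7 nominally lower, with members on both sides. Their median was −0.20, 0.08 with the offset and −0.53 to 0.16 when 1 library was left out. Junb, an AP-1 subunit, lay at 121, 108 and 107 CPM on HFHS and 198, 389 and 423 CPM on SD (log2 fold change −1.59, standard error 0.27, adjusted p = 0.0742). Zfp36l2, which destabilises messages, lay at 972, 985 and 1255 CPM on HFHS and 681, 642 and 828 CPM on SD (log2 fold change 0.58, 0.84 with the offset). Ppp1r15a, which ends the translational stress response, was lower (51.3, 35.2 and 68.3 CPM on HFHS and 104, 256 and 177 CPM on SD). Heat shock genes had 8 of 20 genes higher, 5 nominally higher and 0 nominally lower, with a median of −0.02. Of the chaperone genes, Dnaja1 lay at 1306, 1339 and 1269 CPM on HFHS and 1004, 589 and 639 CPM on SD, and Hspe1 at 398, 408 and 391 CPM on HFHS and 262, 211 and 161 CPM on SD. Genes of the unfolded protein response had 11 of 23 genes higher, 1 nominally higher and 2 nominally lower, with a median of −0.00. Interferon-stimulated genes had 23 of 46 genes higher, 4 nominally higher and 3 nominally lower, with a median of 0.01. Among them Ifi27l2a was higher at 1295, 1957 and 1228 CPM on HFHS and 965, 972 and 548 CPM on SD. Irf9, a subunit of the interferon-activated factor, was lower at 41.2, 44.7 and 29.7 CPM on HFHS and 75.5, 106 and 79.7 CPM on SD. Genes of mTOR and PI3K signalling had 15 of 31 genes higher, 7 nominally higher and 0 nominally lower, with a median of −0.01. The medians of these last 4 lists took both signs when each library was left out in turn.

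Genes of antigen presentation and of the cytoskeleton had members on both sides. MHC class I genes had 6 of 20 genes higher, 3 nominally higher and 2 nominally lower, with a median of −0.20, and −0.04 with the offset. They were higher at 5 of 10 transcripts up to 1525 bases and at 1 of 10 longer ones. Among all genes tested 65.6% of those up to 1525 bases were higher, and 35.5 to 51.3% in the longer length groups. B2m, the light chain with 858 bases, lay at 28388, 30848 and 35769 CPM on HFHS and 21778, 21063 and 17332 CPM on SD. H2-D1, a heavy chain with 1736 bases, lay at 2719.6, 2466 and 2346 CPM on HFHS and 3347, 3474 and 3491 CPM on SD. Actin and motility genes had 11 of 35 genes higher, 4 nominally higher and 8 nominally lower, with a median of −0.16. They were higher at 3 of 5 transcripts up to 1525 bases and at 8 of 30 longer ones. Tmsb4x was higher at 53755, 63616 and 65672 CPM on HFHS and 38495, 38930.2 and 32009 CPM on SD (log2 fold change 0.74, −0.03 with the offset). The related thymosin gene Tmsb10 was higher at 8083, 9585 and 10199 CPM on HFHS and 6253, 6062 and 4516 CPM on SD (0.73, 0.28 with the offset). Actg1, a cytoplasmic actin, was lower at 1673, 1374 and 1234 CPM on HFHS and 2124, 2855 and 2111 CPM on SD (−0.73, −0.45 with the offset), as was the actin regulator Coro1a (−0.80). Translation initiation factors had 21 of 39 genes higher, 5 nominally higher and 5 nominally lower, with a median of 0.02. Splicing proteins of the SR and hnRNP families had 18 of 34 genes higher, 3 nominally higher and 1 nominally lower, with a median of 0.03. Nuclear noncoding RNAs had 12 of 19 genes higher, 3 nominally higher and 1 nominally lower, with a median of 0.40, but −0.25 with the offset. Gas5, a host of small nucleolar RNAs, lay at 263, 295 and 422 CPM on HFHS and 184, 199.6 and 229 CPM on SD. Malat1, a nuclear speckle RNA, lay at 20709, 12917 and 18576 CPM on HFHS and 14966, 15488 and 25562 CPM on SD.

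Of the 15 genes with the smallest p in each direction, those higher on HFHS had a median transcript of 764 bases and those lower 2117 bases, beside 2804 bases for all genes tested. Of the 15 higher genes 12 had transcripts up to 1525 bases and 5 encode ribosomal proteins, and 3 had an unadjusted p under 0.05 in the same direction with the offset. Of the 15 lower genes 3 were that short, and all 15 had such a p with the offset. The 3 higher genes were Tsix, Pdcd4 and Rps15a. Pdcd4, a repressor of translation that is lowered when T cells are activated, lay at 489, 451 and 469 CPM on HFHS and 260.0, 244 and 243 CPM on SD (log2 fold change 0.92, standard error 0.16, adjusted p = 0.0742, 0.82 with the offset). Tsix, the antisense partner of the X-inactivation RNA Xist, lay at 2664, 2197 and 3415 CPM on HFHS and 1111, 1309 and 1045 CPM on SD (log2 fold change 1.26, standard error 0.17, adjusted p = 0.0572, 1.12 with the offset). Xist lay at 253, 167 and 227 CPM on HFHS and 105, 180.2 and 219.8 CPM on SD, with overlap. Both are annotated on the same stretch of the X chromosome on opposite strands, and because the strand of counting is not stated, reads of the 2 RNAs cannot be told apart. AW112010, an RNA of activated T cells, was higher at 6618, 7702 and 9116 CPM on HFHS and 4394, 3997 and 3521 CPM on SD (0.08 with the offset). Id2, a regulator of effector fate, was higher at 5626, 5767 and 6776 CPM on HFHS and 3528, 3762 and 3989 CPM on SD.

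Of the lower genes, Lars2, which charges mitochondrial leucine tRNA, lay at 155, 129 and 93.3 CPM on HFHS and 460.2, 285 and 445 CPM on SD (log2 fold change −1.66, standard error 0.25, adjusted p = 0.0572, −1.61 with the offset). Ints11, the nuclease of the Integrator complex, lay at 23.5, 22.7 and 22.2 CPM on HFHS and 58.9, 68.4 and 118 CPM on SD. The histone gene H2ac23 lay at 15.1, 22.1 and 31.8 CPM on HFHS and 111, 103 and 56.5 CPM on SD. The last of these lists' members, Ptgds and Chgb, are genes of brain and secretory cells and not of T cells. Ptgds, a prostaglandin synthase, had 2, 0 and 4 counts on HFHS and 131, 68 and 1455 counts on SD. Chgb, a granin of secretory vesicles, had 1, 0 and 1 counts on HFHS and 41, 175 and 328 counts on SD, with the highest count of each in SD 42_46.

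**Figure D2:**
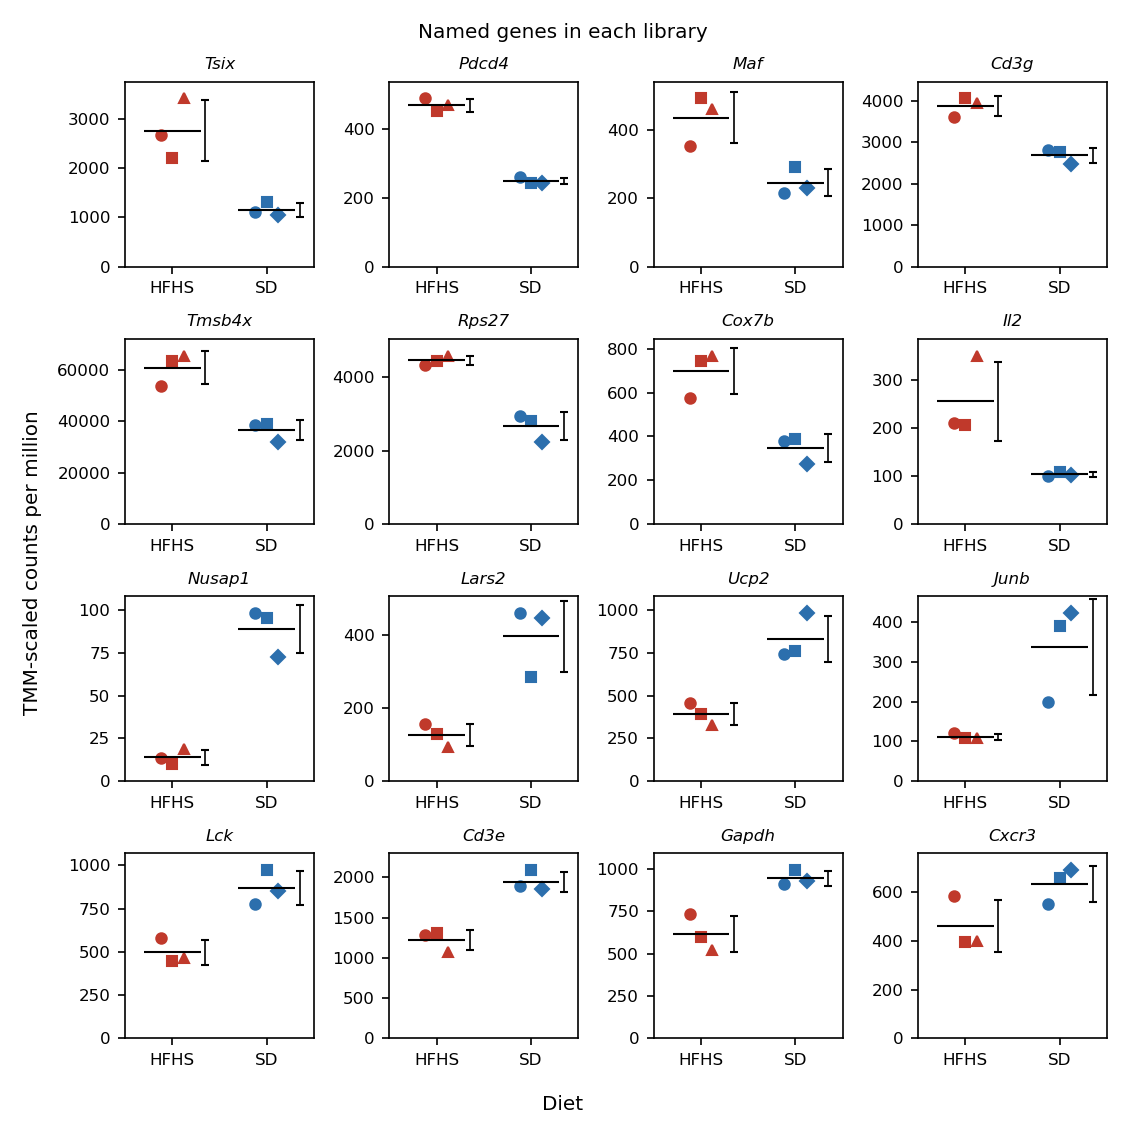
TMM-scaled CPM (y axis, starting at 0) of 16 named genes in the HFHS (red) and SD (blue) libraries, each point 1 library, with the mean as a line and the standard deviation of 3 libraries as a bar. The diets do not overlap at any of these genes except Cxcr3.

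**Figure D3:**
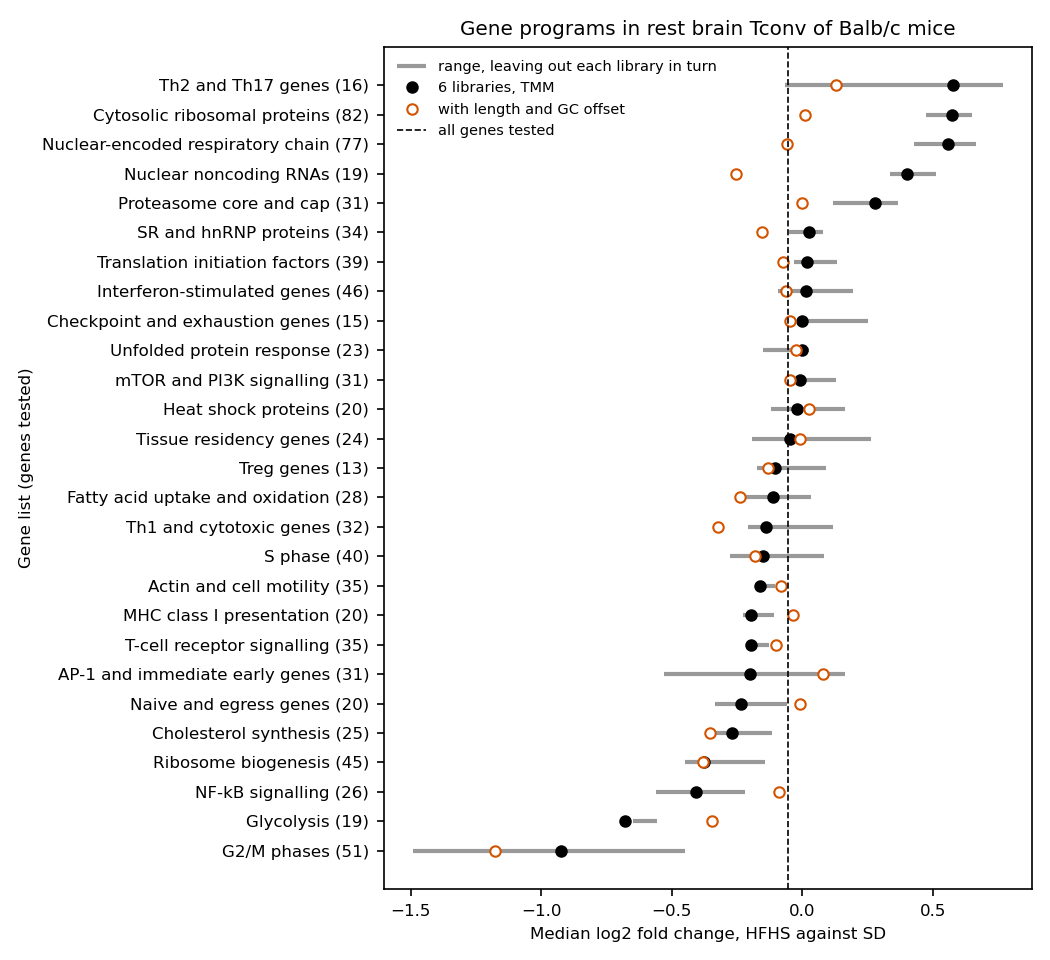
Median log2 fold change on HFHS against SD (x axis) of 27 gene lists (y axis, with the number of genes tested), as filled points for the 6 libraries, open points with the length and GC offset and grey lines for the range when each library is left out. The ribosomal protein and respiratory chain lists lie near the dashed median of all genes with the offset, while the G2 and M phase list lies at −1.18.

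Markers of brain cells were most abundant in 1 of the SD libraries. Marker genes of microglia, astrocytes, oligodendrocytes and neurons together made up 0.111, 0.101 and 0.109% of the counts on HFHS and 0.112, 0.0989 and 0.386% on SD, and in SD 42_46 the 95% interval ran from 0.383% to 0.390%. The other 5 libraries lay close together on this share, but Ctss and Cst3, which cells outside the brain also express, made up 48.8 to 68.003% of it. In SD 42_46 these genes made up 44.3% of the share. Without these 2 genes, left out after seeing their values, the share was 0.0390, 0.0323 and 0.0382% on HFHS and 0.0510, 0.0506 and 0.215% on SD, lower in each HFHS library than in each SD library. The part of brain-cell transcripts in the other differences between the diets was not tested. Marker levels for other cell types are CPM of the library total, without TMM.

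The microglia list summed to 504, 506 and 466 CPM on HFHS and 488, 471 and 1532 CPM on SD, with 14, 11 and 9 of 17 genes over the floor on HFHS and 13, 9 and 17 on SD. Its most abundant gene in each library was Ctss, a lysosomal protease of antigen-presenting cells, at 345, 318 and 267 CPM and 274, 273 and 465 CPM. P2ry12, the purine receptor that defines microglia, had 265, 360 and 2 counts on HFHS and 85, 2 and 3002 counts on SD, so it was at or under the floor in HFHS 47_25 and SD 37_41. Tmem119, another defining gene, had 18, 0 and 3 counts on HFHS and 0, 3 and 256 counts on SD, and Trem2, a microglial lipid receptor, had 0, 0 and 1 counts on HFHS and 1, 0 and 241 counts on SD. Both were highest in SD 42_46.

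Astrocyte markers summed to 385, 376 and 463 CPM on HFHS and 369.7, 222 and 1436 CPM on SD, most of it Cst3, a secreted protease inhibitor, at 370.0, 369.8 and 441 CPM and 340.3, 209.8 and 1245 CPM. Of the defining astrocyte genes, Gfap, the filament protein of the cell type, had 7, 5 and 11 counts on HFHS and 0, 0 and 0 counts on SD, and the water channel gene Aqp4 had 25, 3 and 25 counts on HFHS and 5, 13 and 2 counts on SD. Aldh1l1 had at most 1 count. Oligodendrocyte markers summed to 181, 112 and 155 CPM on HFHS and 225, 291 and 697 CPM on SD, with 8, 6 and 7 of 15 genes over the floor on HFHS and 11, 8 and 15 on SD. Neuron markers summed to 34.3, 17.8 and 7.22 CPM on HFHS and 41.9, 4.80 and 197 CPM on SD. SD 42_46 held all 18 neuron genes over the floor, among them the neuropeptide genes Sst at 307 counts and Npy at 185 counts, and Npy had 0 counts in the other 5 libraries.

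Differences between the diets in the microglia, astrocyte and neuron lists turned or shrank without SD 42_46, and the oligodendrocyte list was lower on HFHS with and without it. The median log2 fold change on HFHS was −1.84 for 13 microglia genes tested and 1.29 for 11 without SD 42_46, −0.33 for 6 astrocyte genes and 1.03 without it, and −2.26 for 7 neuron genes and −0.07 for 2 without it. The oligodendrocyte markers were lower in sum in each HFHS library than in each SD library. All 7 oligodendrocyte genes tested were lower, with a median of −2.03, and without SD 42_46 the median was −0.58, with 1 of 6 higher. Without this library the ribosomal protein, respiratory chain, G2 and M phase and glycolysis lists had medians of the same sign as with it, and 620 genes were nominally higher and 397 nominally lower.

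Some markers of other lymphocytes were lower on HFHS, while their sums overlapped between the diets after TMM. The genes of the CD8 chains summed to 276, 333 and 283 CPM on HFHS and 364, 428 and 479 CPM on SD, without overlap, but with TMM to 289, 366 and 309.7 CPM and 349, 411 and 419 CPM, with overlap. Cd8b1 alone lay at 169.6, 210.1 and 178 CPM on HFHS and 222, 237 and 241 CPM on SD after TMM, without overlap. The study's gate for brain CD4 T cells left out those stained for CD8a, and its use in this sort is not given in the sources used here. Markers of natural killer cells summed to 22.3, 34.2 and 36.7 CPM and 40.7, 53.7 and 119 CPM without overlap, and with TMM to 23.3, 37.6 and 40.1 CPM and 39.1, 51.6 and 104 CPM, with overlap. Ncr1, an activating receptor of these cells, lay at 3.28, 33.3 and 20.7 CPM on HFHS and 35.1, 47.7 and 81.6 CPM on SD after TMM, without overlap (log2 fold change −1.52, −1.11 without SD 42_46). Of the 3 genes of that list tested 1 was higher, with a median log2 fold change of −0.21, and 0.75 without SD 42_46. The part of either cell type in the levels of Cxcr3, Tbx21 and Il2rb, which these cells share with Th1 cells, was not tested. Markers of B cells summed to 9.79 to 43.1 CPM and overlapped between the diets, with Pax5 at 0 counts in every library. Macrophage and monocyte markers reached 424 to 647 CPM through Ly6c2 and Ccr2, and endothelial markers 228 to 383 CPM through Ly6c1, genes that activated T cells also express. Of the defining macrophage genes, Mrc1 had at most 3 counts, Pf4 17 in SD 32_36 and 0 elsewhere, and Cd163 at most 16. Of the endothelial ones, Cldn5 had at most 2 counts and Cdh5 at most 6, while Pecam1 had 201 to 493. Dendritic cell markers summed to 22.3 to 44.1 CPM, pericytes and smooth muscle to 1.31 to 18.8 CPM, choroid plexus and ependyma to 0.755 to 32.7 CPM, and fibroblasts to 0.0521 to 9.43 CPM. Erythroid cells (0 to 7.44 CPM), platelets (0.104 to 4.58 CPM), mast cells and basophils (0 to 1.51 CPM) and neutrophils (0 to 1.32 CPM) left next to no counts. Of the 6 gamma-delta T-cell markers 2 were measured here, neither a receptor gene, so their levels do not show whether such cells were present.

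**Figure D4:**
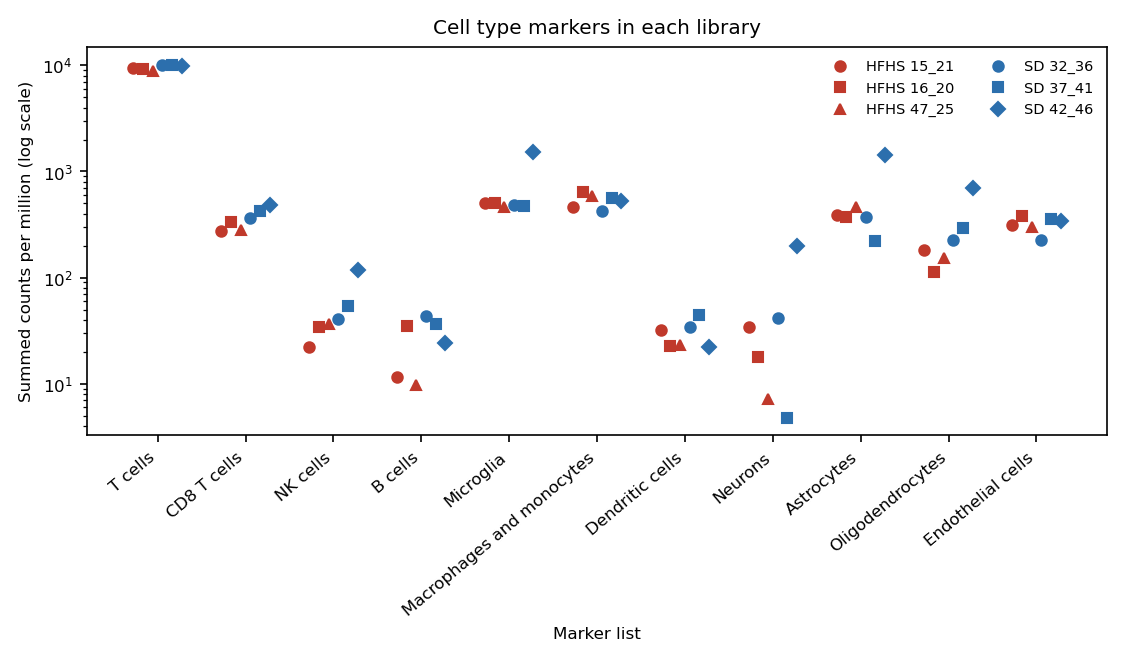
Summed CPM of the library total (y axis, log scale) of 11 marker lists (x axis) in the HFHS (red) and SD (blue) libraries, each point 1 library. SD 42_46, the blue diamond, lies above the other 5 libraries for microglia, astrocytes, oligodendrocytes and neurons.

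The direction of the ribosomal and mitotic programs was compared with hypothalamic Tconv and rest brain Tregs of the same strain and with rest brain Tconv of male C57Bl/6J mice, whose strain and sex cannot be told apart. Ribosomal protein genes were higher on HFHS in 82 of 82 cases in hypothalamic Tconv (median log2 fold change 0.21). In Tregs 11 of 82 were higher (−0.20), and in C57Bl/6J Tconv 1 of 82 (−0.27). In the same order 2, 0 and 0 of these genes were nominally higher and 0, 0 and 13 nominally lower. Of all genes tested 5075 of 10013, 5784 of 10653 and 5432 of 10932 were higher, with medians of 0.007, 0.095 and −0.003. The G2 and M phase list had a median of 0.46 in hypothalamic Tconv, 0.24 in Tregs and −0.01 in C57Bl/6J Tconv, beside −0.92 here. EdgeR called 0 genes in each of these 3 diet comparisons. At an unadjusted p under 0.05 it had 418 of 10013, 551 of 10653 and 476 of 10932 genes.

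The differences between these diet effects were tested as interactions. The diet effect differed from that in the hypothalamus at 0 of 11786 genes (0%) by edgeR, with 983 genes at an unadjusted p under 0.05, and at 178 by DESeq2. It differed from that in Tregs at 11 of 12932 genes (0.0851%), 1 to 2 when 1 of the 6 libraries was left out, 0 with the pool as replicate block and 801 by DESeq2. At 7 of the 11 genes all SD Treg libraries were at or under 3 counts. It differed from that in C57Bl/6J mice at 118 of 12259 genes (0.963%), 100 of them higher in Balb/c mice, among them 27 ribosomal protein and 13 respiratory chain genes, and at 669 by DESeq2. Of the 118 genes 89 had transcripts up to 1525 bases, and edgeR called 0 with the length and GC offset. It also called 0 without SD 42_46, and 0 to 134 when each of the 6 libraries was left out in turn.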

How the data were processed

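RNA of sorted T cells was measured as above. The deposited files hold an estimated count and TPM for each RefSeq name, made by the authors with Salmon and not scaled between libraries, with mm10 among the builds in the submitters' processing notes. Of 35034 names, 34850 (99.5%) were matched to RefSeq genes of GRCm38.p6, and the estimated counts were summed to 24471 features, rounded and scaled by TMM in edgeR 4.0.16 (R 4.3.3). Genes needed over 10 counts in 3 or more libraries (2 for the cell type interaction) and were tested by quasi-likelihood with Benjamini-Hochberg adjustment and a threshold of 0.05. Alternatives were DESeq2 1.42.0, limma 3.58.1 voom, other filters and scalings, leaving out each library and, chosen after seeing the data, an offset from a loess trend (span 0.3) on transcript length and GC content. Transcript length and GC content came from the names matched. The procedure was tested on simulated data. Matched pools have the same pool name in 2 tissues or cell types. Their deviations from the group mean of each gene, in log2 CPM, correlated at −0.0180 to 0.111, so the main fits have no block. The highest values, 0.108 and 0.111, came from the 2 SD Treg pools, whose deviations mirror each other. The 27 program and 19 marker lists are described by counts and medians. Genes named are the 14 the study names, in each direction the 15 with the smallest p among genes without overlap and a mean of at least 5 CPM, from each program list the 2 of highest TPM and up to 2 with the smallest p in each direction, and the defining (first 3) and most abundant marker genes, with genes of the sort gate added. A few of these genes are not reported here. Members and lists were chosen with earlier results of these data known. Python 3.11.15, pandas 2.3.3, scipy 1.17.1 and matplotlib 3.10.9 were used.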

Additional observations from a re-analysis of the deposited data

Results flagged for a closer look

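Tests of the interaction put these results apart from the rest, since the main edgeR fits called genes whose diet effect differed between groups of mice or cells. The calls did not hold in all fits. Against rest brain Tregs, 11 genes had a different diet effect by edgeR, Ppp1r7, Tmem161b, Wdr11, Nedd1, Prim1, Ccdc125, Thumpd2, Vps50, Nqo2, Atg10 and Ppp2r1a, a set named after their values were seen. Ppp1r7 had 1573, 1150, 637 and 1270 counts in the 4 HFHS Treg libraries and 1 and 0 counts in the 2 SD Treg libraries, while Wdr11 had 0, 4, 0 and 0 counts on HFHS and 1619 and 2380 counts on SD. At 10 of the 11 genes the log2 fold change on HFHS was −0.36 to 0.97 in rest brain Tconv. At Ppp2r1a it was −1.30 in Tconv and 1.52 in Tregs. EdgeR called 1 to 2 genes when 1 of the 6 Tconv libraries was left out, and it called 0 genes with the pool as replicate block.

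Against rest brain Tconv of male C57Bl/6J mice, 118 genes had a different diet effect by edgeR, and strain and sex cannot be told apart. At 114 of them the diet effects were of opposite sign. Among the genes named by the rule, the log2 difference of the diet effects, Balb/c less C57Bl/6J, was positive for Tbca (1.58), Cox7b (1.55), Cetn3 (1.48), AW112010 (1.37), Cd52 (1.29), Pdcd4 (1.26), Bcl2a1b (1.22), Rps29 (1.21), Rps15a (1.20), Tmsb10 (1.20), Cox6c (1.19), Rps27 (1.19), Ndufa4 (1.17), Tmsb4x (1.16), B2m (1.12), Rps27a (1.11), Rpl32 (1.01) and Cd3g (0.91). It was negative for Ints11 (−2.12), Junb (−1.53), Traf1 (−1.29), Ppp1r18 (−1.24) and Ucp2 (−0.99). When each Balb/c library was left out in turn, edgeR called 0 genes without SD 42_46, without SD 37_41, without HFHS 16_20 and without HFHS 47_25, against 116 without SD 32_36 and 134 without HFHS 15_21. In the 4 fits with 0 calls, 1280 to 1482 genes had an unadjusted p under 0.05, against 1565 with all libraries. The smallest adjusted p was 0.0614 to 0.138, against 0.0311. Whether the calls were lost through these libraries or through having fewer of them was not tested. EdgeR called 0 with the length and GC offset. In C57Bl/6J Tconv the shortest of 5 length groups had a median log2 fold change on HFHS of −0.19, and 0.24 here. The part of transcript length in the strain calls was not tested further.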

How the results depend on the processing

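The offset for length and GC content, its use without SD 42_46 and leaving out libraries in the interactions were chosen after seeing the data. Counts of called genes depended on the tool and the filter. For the diet effect, edgeR called 0 genes, 7 with DESeq2's size factors, 13 with library totals, 5 with more than 10 counts in total, 250 with no filter, 190 in a joint fit of both strains, 75 in a joint fit of all Tconv and 0 to 1 when a library was left out. DESeq2 called 590 and limma-voom 125. The count at an unadjusted p under 0.05 was 1372, 2093 with no filter, 836 with the offset and 563 with the offset and without SD 42_46. For the interactions, DESeq2 called 178, 801 and 669 genes (tissue, cell type, strain). When 1 Balb/c rest brain Tconv library was left out, edgeR called 0 to 3 genes for tissue, 1 to 2 for cell type and 0 to 134 for strain, against 0, 11 and 118. With the pool as replicate block it called 0 for cell type, and with the offset 0 for strain. Of 270 list medians 241 moved by less than the spread between libraries. Taken less the median of all genes, the ribosomal protein median was 0.11 with the offset and 0.085 with the offset and without SD 42_46, against 0.63. For the respiratory chain it was 0.046 and −0.0047, against 0.61 and 0.44 to 0.71 with a library left out. For glycolysis it was −0.24 with the offset, against −0.62, and for the G2 and M phases −1.42 to −0.42 with a library left out. Of 1433 values of 85 named genes, 37 turned sign, 219 kept their sign and passed the adjusted threshold, and 1177 kept their sign without passing it. The sign turned with library totals for Cd226 (−0.18) and Pcna (−0.060), with limma-voom for Mtor (−0.13), Map3k7 (−0.071) and Tlr4 (0.23), and with the offset for Cd226 (−0.35), Ccl5 (−0.056), Map3k7 (−0.024), Tmsb4x (−0.031), Rps27 (−0.17), Pcna (−0.16), Hmgb2 (−0.14), Rpl32 (−0.17), Cox6c (−0.030), Ndufa4 (−0.18), Klf2 (0.11) and B2m (−0.16). With the offset and without SD 42_46 it turned for Map3k7 (−0.41), Tlr4 (0.63), Rps27 (−0.14), Pcna (−0.34), Hmgb2 (−0.14), Rpl32 (−0.14), Ndufa4 (−0.18) and B2m (−0.12). When each library was left out in turn it turned for Cd226 (−0.26 to 0.28), Ccr4 (−0.80 to 0.049), Mtor (−0.83 to 1.17), Map3k7 (−0.16 to 0.65), Tlr4 (−1.61 to 0.85), Pcna (−0.13 to 0.44), Rplp0 (−0.22 to 0.029) and Malat1 (−0.25 to 0.20). The cause of these changes was not tested. At 3 pools per diet and 2 libraries apart from the rest, small differences may have been missed, and the smallest detectable difference is not given here. Genes near the floor of 3 counts carry no usable fold change.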
